A study of Mus musculus with 8 samples.

Results

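Tubulin messenger RNAs were followed in the mouse line KRPC-A, pancreatic tumour cells that the labels call PDAC-like and that came from tumours of genetically engineered mice on a C57BL/6 background. The 10 genes were Tuba1a, Tuba1b, Tuba1c and Tuba4a, which encode alpha-tubulins, and Tubb2a, Tubb2b, Tubb3, Tubb4b, Tubb5 and Tubb6, which encode beta-tubulins, out of 55536 genes listed in every file. They were chosen as a family because Tubb3 ribosome footprints were lower without leucine in Gcn2 knockout (KO) cells, so every value of the leucine comparison in KO cells is a description here and supports nothing else. Gcn2 wild-type (WT) and Gcn2 KO cells spent 1 h in a medium that was either amino-acid-replete or leucine-free, and each of the 4 combinations gave 1 RNA-seq library and 1 ribosome profiling library, 8 in all. All cells shared the line, the background and the change of medium. How the knockout was made, and whether its cells were 1 clone or a pool, is not given in the sources used here. With 1 library per group there is no spread between cultures, so no test across cultures was possible, no p-value is given, and each ratio compares a pair of libraries rather than the conditions.

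Alpha- and beta-tubulin form the dimer from which microtubules are built. New chains are passed from prefoldin to the chaperonin CCT and then to a set of tubulin folding cofactors that assemble the dimer. Tubulin mRNAs are known for autoregulation: when free dimer is plentiful, TTC5 recognises the first residues of a tubulin chain as it leaves the ribosome, and SCAPER and the CCR4-NOT deadenylase then bring about decay of the mRNA being translated. The isotypes differ mostly in their C-terminal tails. Tubb5 is the most widely used beta isotype, Tubb4b is also widespread and abundant in cilia, and Tubb3 is best known as the beta isotype of neurons that many tumours also make. Tuba1b is the common alpha isotype, Tuba1a is prominent in developing neurons, and Tuba4a encodes an alpha-tubulin that lacks the C-terminal tyrosine. GCN2, encoded by Eif2ak4, is a kinase that senses uncharged transfer RNA and phosphorylates the initiation factor eIF2alpha.

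The genes lie on 7 chromosomes of GRCm38. Tubb3 (ENSMUSG00000062380) is on chromosome 8 from 123411424 to 123422015 on the plus strand and has 4 exon blocks. Tubb5 (ENSMUSG00000001525) is on chromosome 17 from 35833921 to 35838306 on the minus strand. Tubb2a (ENSMUSG00000058672) and Tubb2b (ENSMUSG00000045136) are neighbours on the minus strand of chromosome 13, from 34074274 to 34078007 and from 34126748 to 34130466. Tuba1b (ENSMUSG00000023004), Tuba1a (ENSMUSG00000072235) and Tuba1c (ENSMUSG00000043091) are clustered on chromosome 15 between 98931425 and 99038110. Tuba4a is on chromosome 1, Tubb4b on chromosome 2 and Tubb6 on chromosome 18.

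Counting treated these genes unequally. Reads that overlapped exons of more than 1 gene were not counted, and this touches 37.3% of the exonic length of Tuba4a (shared with Stk16 on the other strand), 27.4% of Tuba1b, 26.2% of Tuba1a and 5.80% of Tubb4b. The other 6 genes share no exonic base with another gene. Reads that fit several near-identical copies equally well were not counted either, and tubulin coding sequences are much alike, those of Tuba1a, Tuba1b and Tuba1c and those of Tubb2a and Tubb2b above all. Footprints are short and fall in coding sequence, whereas RNA reads also cover the more distinct untranslated ends. The loss is therefore unknown and differs between genes and between assays, so footprint levels and the ratio of footprints to RNA are uncertain when one tubulin gene is set against another. Ratios of 1 gene between libraries of 1 assay rest on the same countable bases.

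Promoter sequence is shown for the most abundant beta isotype, for Tubb3 and for the most abundant alpha mRNA, because these 3 differ widely in RNA level within 1 family. Each line ends at the last base before the counted gene model begins. Sequences are from RefSeq, build GRCm38.p6, read 5′ to 3′ on the gene's strand, and capitals mark matches to CCAAT or GGGCGG on either strand.
Tubb5, chr17:35838307-35838406, minus strand: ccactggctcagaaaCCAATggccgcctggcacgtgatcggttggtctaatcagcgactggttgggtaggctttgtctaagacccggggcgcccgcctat
Tubb3, chr8:123411324-123411423, plus strand: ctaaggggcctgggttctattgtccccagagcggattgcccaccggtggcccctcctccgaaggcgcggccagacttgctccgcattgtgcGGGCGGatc
Tuba1b, chr15:98934566-98934640, minus strand: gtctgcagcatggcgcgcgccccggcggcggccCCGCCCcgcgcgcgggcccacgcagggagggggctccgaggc
Over the 250 bases before the RefSeq start, 8 of the 10 genes had an entry, all but Tubb2b and Tubb6. CCAAT, the box bound by NF-Y, was found on either strand in 5 of these 8, against 33.8% of all 32851 promoters. GGGCGG, the GC box, was found in 6 of 8, against 32.7%, and TATAAA in 1 of 8 (Tubb2a), against 12.4%. No matches overlapped within these 8 genes, and a match describes letters in a window, not a bound site.

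The RNA-seq libraries held 49136610 to 60680169 counted reads and the footprint libraries 2671491 to 9993211, with the fewest in WT leucine-free cells. Levels are CPM, the gene's reads per 1e+06 of the library's protein-coding reads, scaled by trimmed mean of M-values (TMM) factors. They are relative within a library, so a change shared by all mRNAs does not show in them. Eif2ak4 RNA was 85.7 and 69.7 CPM in WT replete and leucine-free cells and 13.6 and 16.7 CPM in KO cells, which matches the genotype labels in direction. Atf4 footprints, which are known to go up when eIF2alpha is phosphorylated, were 172 and 527 CPM in WT cells and 199 and 212 CPM in KO cells. Atf4 RNA was 261 and 486 CPM in WT and 465 and 528 CPM in KO cells, so RNA was higher without leucine in WT cells too. The 9 markers of duct and epithelium were mixed: Epcam had 0 RNA reads in all 4 libraries and Krt19, Muc1 and Cldn4 at most 25, 32 and 11, while Sox9 had 6431 to 23285, Krt18 2499 to 8770 and Krt8 750 to 1503. Of the 8 mesenchymal markers, Col3a1, Vim and Fn1 had at least 55282, 33473 and 12274 RNA reads, whereas Pdgfra had at most 17 and Col1a1 had 632 and 698 in WT but 176 and 186 in KO cells. The 10 tubulin genes took 0.160% to 0.199% of protein-coding RNA reads, but 0.525% and 0.468% of protein-coding footprints in WT cells, replete and leucine-free, and 0.597% and 0.345% in KO cells.

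Tubb5 dominated the beta-tubulins in every library. In RNA it reached 1107 and 1336 CPM in WT cells (replete first, leucine-free second, as in all lists of values below) and 1375 and 1132 CPM in KO cells. In the same order, 4459 and 3931 CPM were found in WT footprints and 4920 and 2478 CPM in KO footprints. Both assays were highest in KO replete cells, and in footprints the KO leucine-free library stood far below the other 3. Per kilobase of exon, the scale on which genes can be compared, Tubb5 made up 76.3% to 80.5% of beta-tubulin RNA. It made up 86.9%, 85.6%, 86.6% and 78.9% of beta-tubulin footprints, lowest in KO leucine-free cells. Footprints rarely cover untranslated exon, so their share per exonic kilobase is approximate.

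**Figure D1:**
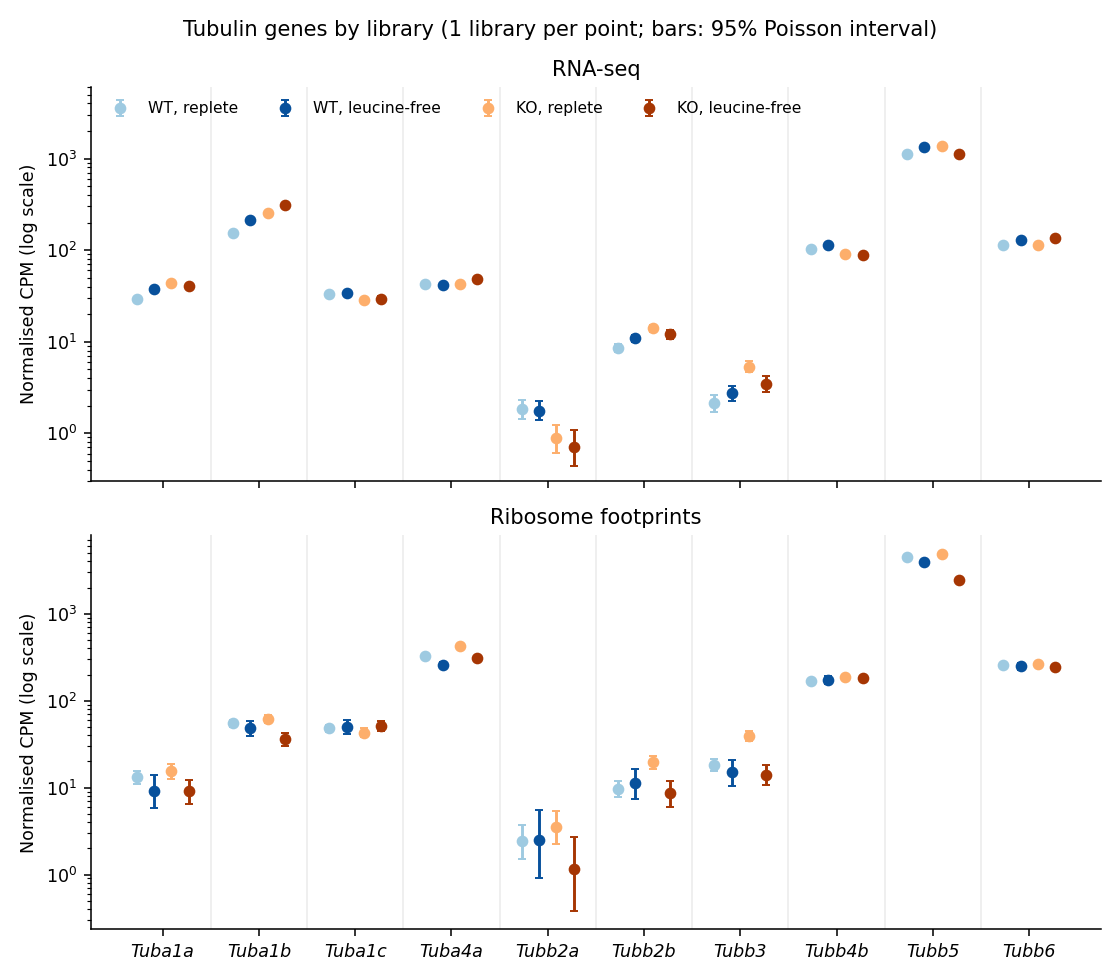
Normalised CPM on a log axis of the 10 tubulin genes in RNA-seq (top) and in ribosome footprints (bottom). Each point is 1 library and bars are 95% Poisson intervals for counting error. Tubb5 is the highest gene in both assays and Tubb2a the lowest, and the KO leucine-free points of Tubb5, Tubb3 and Tubb2b lie below their KO replete points in footprints.

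Tubb3 was a minor isotype with many footprints for its RNA. Its RNA counts were 89 and 111 in WT and 205 and 108 in KO cells, replete before leucine-free. These are 2.12 CPM (95% Poisson interval 1.70 to 2.61), 2.72 (2.24 to 3.28), 5.35 (4.64 to 6.13) and 3.48 (2.85 to 4.20). KO replete cells were highest, clear of the intervals of the other 3, while WT leucine-free overlapped both of its neighbours in the order, WT replete and KO leucine-free. Its footprint counts were 166, 36, 254 and 61. These are 18.3 CPM (15.6 to 21.3), 15.0 (10.5 to 20.8), 39.2 (34.6 to 44.4) and 14.1 (10.8 to 18.2). In footprints, too, KO replete cells stood alone at the top, and the intervals of the other 3 libraries overlapped. Tubb3 made up 0.261% to 0.558% of beta-tubulin RNA per kilobase and 0.583% to 1.23% of the footprints, both highest in KO replete cells.

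Tubb2a and Tubb2b, the closely related pair that is enriched in neurons, were also minor. Tubb2b RNA was 8.54, 10.9, 14.1 and 12.0 CPM, and its footprints were 9.70, 11.3, 19.5 and 8.58 CPM from 88, 27, 126 and 37 reads. The Tubb2b profile thus had its maximum in KO replete cells in both assays, as Tubb3 did. Tubb2a had only 77, 72, 34 and 22 RNA reads and 22, 6, 23 and 5 footprints. It stood below the minimum mean of 30 reads in footprints, so its footprint ratios are left out of all counts and medians. Tubb4b RNA lay between 89.4 and 115 CPM and its footprints between 170 and 185 CPM. Tubb6, a beta isotype found at moderate levels in many tissues, lay between 115 and 134 CPM in RNA and between 245 and 267 CPM in footprints. Tubb4b and Tubb6 footprints thus varied little between libraries, and in KO leucine-free cells their shares of beta-tubulin footprints were the highest of the 4 libraries, at 9.21% and 10.7% per kilobase, against 5.19% and 6.40% in KO replete cells.

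The alpha-tubulins were divided differently in RNA and in footprints. Tuba1b RNA was 154, 215, 257 and 308 CPM and made up 65.9%, 71.1%, 73.9% and 77.1% of alpha-tubulin RNA per kilobase. Its footprints were only 54.9, 48.1, 61.9 and 35.9 CPM, or 14.8% to 21.0% of the family. Tuba1b was thus the leading alpha-tubulin RNA in every library and took a smaller share of the footprints. Tuba4a was the reverse: its RNA was 43.0, 41.8, 42.8 and 49.0 CPM (6.21% to 9.34% of the family) and its footprints were 327, 257, 421 and 307 CPM (56.9% to 65.4%). This contrast between genes carries the uncertainty of uncounted shared reads. Tuba1a RNA was 29.4, 37.3, 44.2 and 40.9 CPM with footprints of 13.1, 9.19, 15.4 and 9.04 CPM from 119, 22, 100 and 39 reads. Tuba1c, the third gene of the chromosome 15 cluster, had 28.4 to 33.7 CPM in RNA and 42.6 to 51.5 CPM in footprints.

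**Figure D2:**
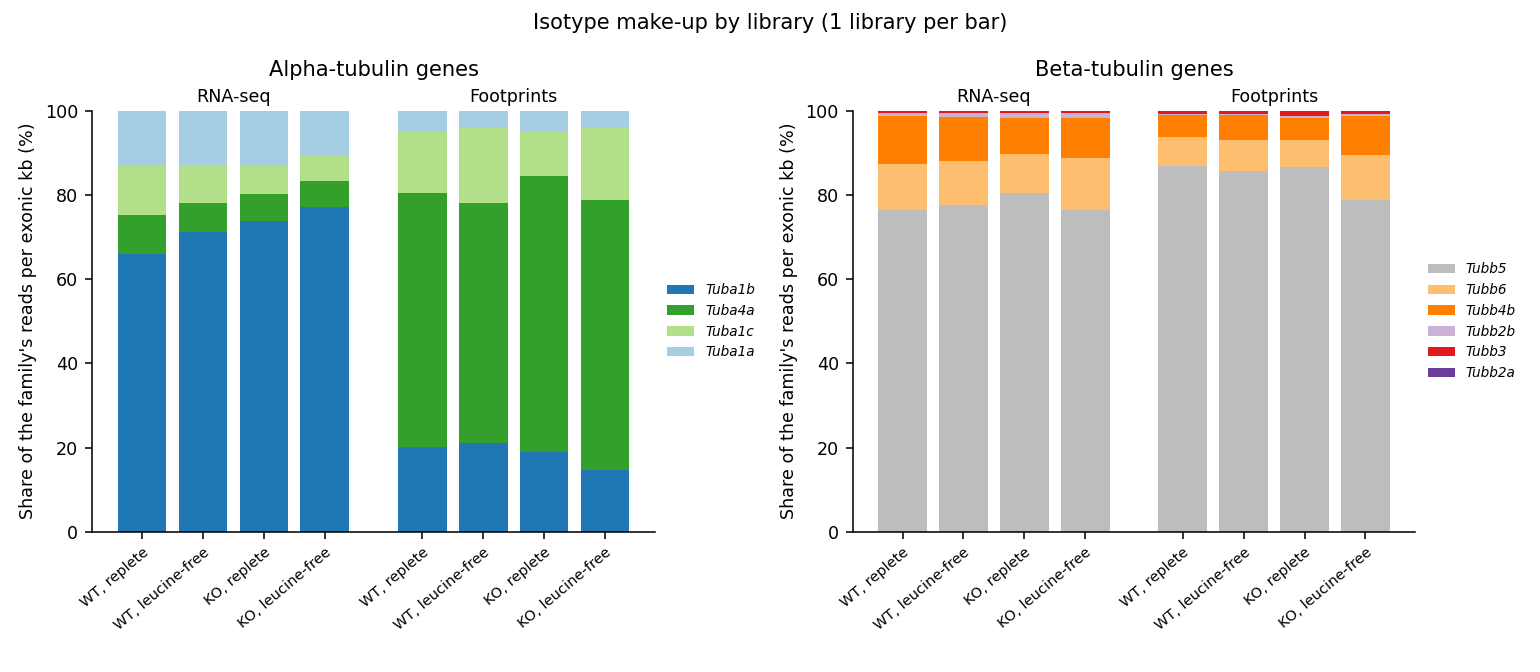
Share of each gene in its family's reads per exonic kilobase (percent, stacked to 100), for alpha-tubulin genes (left) and beta-tubulin genes (right), 1 library per bar. Tuba1b leads alpha-tubulin RNA and Tuba4a leads alpha-tubulin footprints, and the Tubb5 share of footprints is 78.9% in KO leucine-free cells against at least 85.6% in the other 3 libraries.

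Translation efficiency (TE), footprint CPM over RNA CPM, spread widely over the family. Uncounted shared reads make TE levels uncertain when a tubulin gene is set against another or against all genes. In WT replete cells TE was 8.62 for Tubb3, 7.59 for Tuba4a and 4.03 for Tubb5. These lie beyond the 90th percentile of the 9100 genes measured in both assays, whose median was 1.03. Tuba1a and Tuba1b were at 0.448 and 0.358, the 20.1 and 14.0 percentiles. In KO leucine-free cells Tubb3 was at 4.08, Tubb5 at 2.19 and Tuba1b at 0.117, the 91.3, 79.6 and 1.02 percentiles. Each of these 3 genes had its lowest TE in KO leucine-free cells. Tubb4b (1.51 to 2.06), Tuba1c (1.45 to 1.75) and Tubb6 (1.83 to 2.32) kept narrow ranges over the 4 cell groups.

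In WT cells, the leucine-free library held more tubulin RNA relative to other genes and slightly fewer tubulin footprints. A ratio here is log2 of leucine-free over replete, with a 95% interval for counting error only. Tuba1b RNA was higher by 0.49 (0.44 to 0.53), Tubb2b by 0.35 (0.14 to 0.55), Tuba1a by 0.34 (0.23 to 0.45) and Tubb5 by 0.27 (0.25 to 0.29). Tubb6 stood at 0.18 (0.12 to 0.23), Tubb4b at 0.16 (0.10 to 0.22) and Tubb3 at 0.36 (-0.05 to 0.78), and Tuba1c, Tuba4a and Tubb2a lay between -0.05 and 0.02. Of the 10 genes, 8 were above 0, with a median of 0.22 against 0.00 over the 10818 genes measured in RNA. None passed the rule of size, a log2 ratio of at least 1 (2-fold) with an interval that excludes 0, which 1.71% of all measured genes passed. When a trend of the ratios with exonic length was removed, the median was 0.11, with Tuba1b at 0.31 and Tubb5 at 0.20.

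Footprints in WT cells were not higher with the RNA. Tubb5 was lower by 0.18 on the log2 scale, at -0.18 (-0.21 to -0.15), and Tuba4a was at -0.35 (-0.48 to -0.22). Tubb3 was at -0.27 (-0.85 to 0.24), Tuba1a at -0.49 (-1.24 to 0.15) and Tubb2b at 0.24 (-0.46 to 0.85). These last 3 intervals include 0, since the WT leucine-free library gave these genes only 36, 22 and 27 footprints. Tuba1b was at -0.19 (-0.50 to 0.10), and Tuba1c, Tubb4b and Tubb6 lay between -0.05 and 0.05. The median of the 9 genes measured was -0.18, against 0.01 over all 9172 genes measured in footprints. None passed the 2-fold rule, passed by 1.46% of all genes, and none was lower by at least 0.5 with an interval clear of 0, against 4.28% of all genes.

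TE combines the assays. In WT cells 8 of 9 genes had a TE ratio below 0, with a median of -0.31 (all genes: -0.01). Tuba1a was at -0.83 (-1.49 to -0.17), Tuba1b at -0.67 (-0.97 to -0.38), Tubb5 at -0.45 (-0.49 to -0.42) and Tuba4a at -0.31 (-0.46 to -0.15). The first 2 were lower by at least 0.5 with an interval clear of 0, as were 10.4% of all genes. None passed the 2-fold rule, which 2.93% of all genes passed. Tubb3 was at -0.63 (-1.28 to 0.02), with an interval that includes 0. Tubb6 was at -0.23 (-0.37 to -0.09), and Tubb4b and Tubb2b were at -0.13 and -0.11 with intervals that include 0. Tuba1c stood at 0.03, the only gene of the 9 above 0.

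In KO cells, the comparison that chose the family, footprints of 5 of the 9 measured genes were lower without leucine by more than 0.5 while RNA differed less. Tubb3 footprints went from 39.2 to 14.1 CPM, a log2 ratio of -1.46 (-1.90 to -1.06), 2.76-fold lower. Tubb2b was at -1.17 (-1.75 to -0.64), 2.25-fold lower, and Tubb5, with 31846 and 10689 reads, was at -0.99 (-1.02 to -0.96), 1.99-fold lower. Tubb3, Tubb2b and Tubb5 sat at the 0.142, 0.294 and 0.654 percentiles of all measured genes. Tuba1b was at -0.78 (-1.06 to -0.51), Tuba1a at -0.76 (-1.35 to -0.23) and Tuba4a at -0.46 (-0.55 to -0.36). Tubb4b, Tubb6 and Tuba1c did not share this: they were at -0.03 (-0.16 to 0.10), -0.12 (-0.23 to -0.01) and 0.27 (0.01 to 0.53). Tubb3 and Tubb2b passed the 2-fold rule, passed by 2.09% of all genes, and the 5 genes lower by at least 0.5 compare with 6.19% of all genes. The median of the 9 was -0.76, against 0.00 over all genes, and -0.46 over the 7 with a mean of at least 100 footprints.

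KO RNA ratios lay on both sides of 0. Tubb3 was at -0.62 (-0.97 to -0.28), Tubb5 at -0.28 (-0.30 to -0.26), Tubb2b at -0.23 (-0.42 to -0.04) and Tuba1a at -0.11 (-0.22 to -0.01). Tuba1b was at 0.26 (0.22 to 0.30), Tubb6 at 0.22 (0.16 to 0.28) and Tuba4a at 0.19 (0.09 to 0.29). The median of the 10 was -0.06, none passed the 2-fold rule, and 3.17% of all genes did. TE in KO cells was therefore lower for most: Tuba1b at -1.04 (-1.31 to -0.77), Tubb2b at -0.94 (-1.50 to -0.38), Tubb3 at -0.85 (-1.37 to -0.32), Tubb5 at -0.71 (-0.75 to -0.67) and Tuba4a at -0.65 (-0.79 to -0.51). Tubb4b, at -0.02, and Tuba1c, at 0.22, were the exceptions. Tuba1b alone passed the 2-fold rule (2.99% of all genes), and it no longer did with scaling to total counts (-0.96) or with the length trend removed (-0.97). Lower by at least 0.5 were 6 genes, Tuba1a at -0.65 (-1.19 to -0.11) among them, against 10.7% of all genes. Tubb6 was at -0.34 (-0.47 to -0.22).

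**Figure D3:**
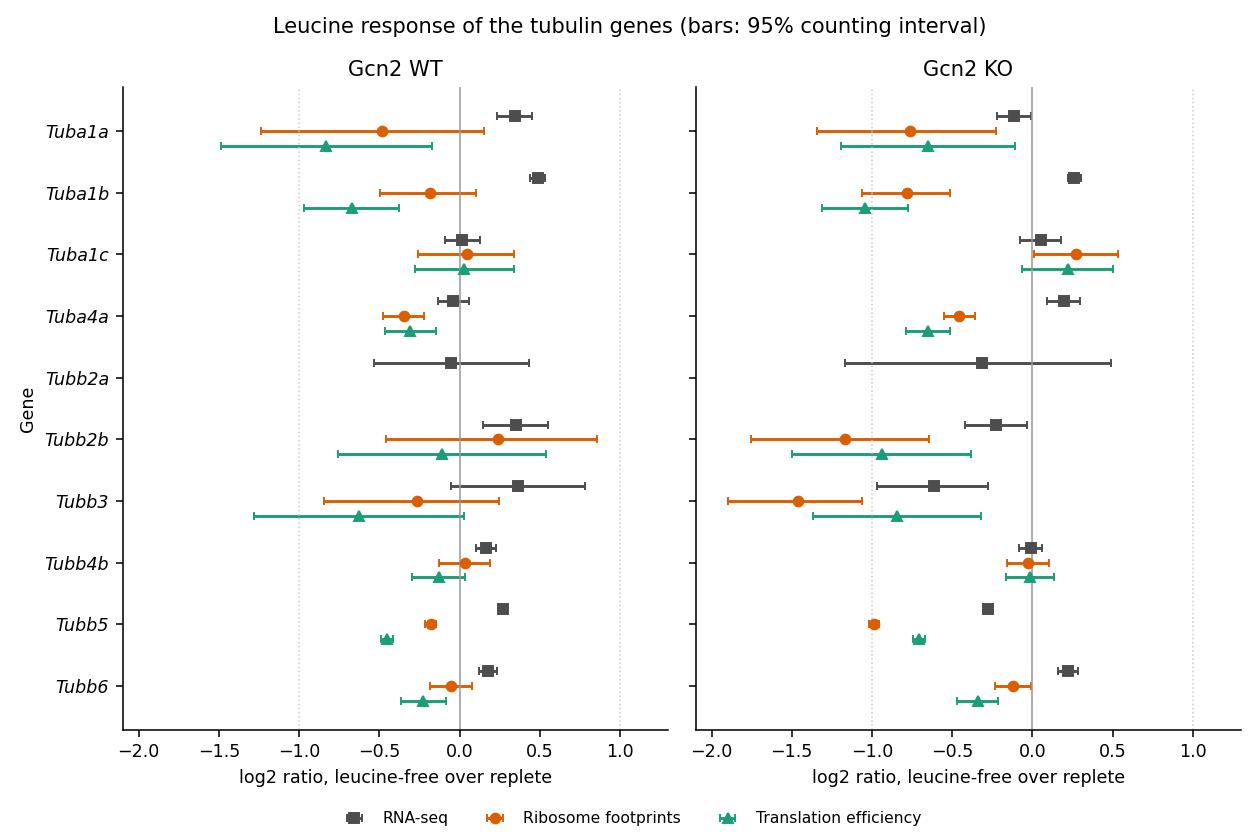
Log2 ratio of leucine-free over replete medium for each tubulin gene in Gcn2 WT (left) and KO (right) cells, in RNA-seq, ribosome footprints and TE. Bars are 95% counting intervals and dotted lines mark a 2-fold difference. In KO cells the footprint points of Tubb3, Tubb2b, Tubb5, Tuba1b and Tuba1a lie below -0.5. In WT cells all footprint points lie above it, Tuba1a only just, at -0.49.

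Summed over the family, alpha-tubulin footprints were at -0.28 (-0.39 to -0.18) in WT and -0.42 (-0.51 to -0.34) in KO cells. Beta-tubulin footprints were at -0.17 (-0.20 to -0.14) and -0.89 (-0.92 to -0.86). The beta sum is mostly Tubb5: without it, the values were -0.02 (-0.12 to 0.07) and -0.19 (-0.27 to -0.11). The alpha TE sum was -0.62 in both genotypes, and the beta TE sum was -0.42 in WT and -0.67 in KO cells. Without Tubb5, the beta TE sum was -0.20 (-0.30 to -0.09) and -0.28 (-0.37 to -0.19), and its WT minus KO difference, 0.08 (-0.06 to 0.22), had an interval that includes 0. The alpha TE sum sets footprints that are mostly Tuba4a (70.6% to 77.8% of the alpha counts) against RNA that is mostly Tuba1b (59.2% to 72.1%).

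**Figure D4:**
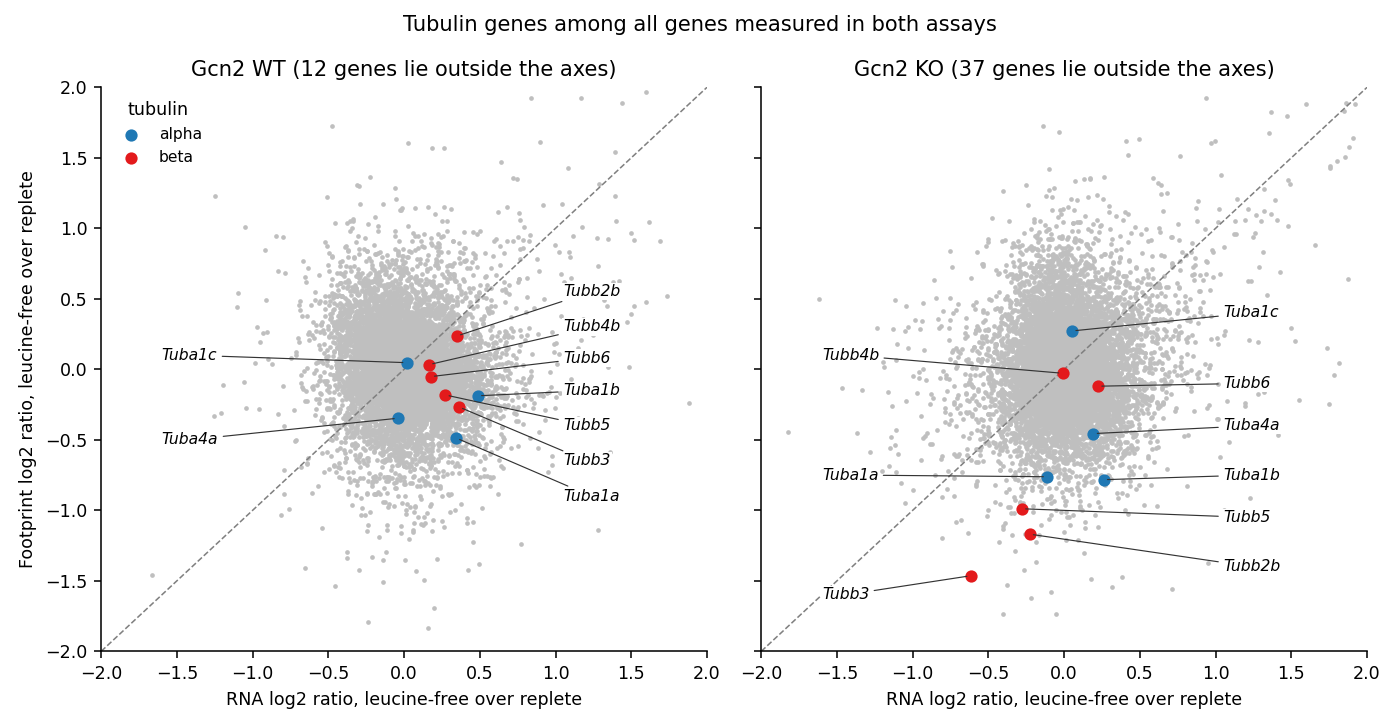
RNA log2 ratio (horizontal) against footprint log2 ratio (vertical), leucine-free over replete, for the 9100 genes measured in both assays (grey) with the 9 tubulin genes in colour, in WT (left) and KO (right) cells; 12 and 37 genes lie outside the axes. The dashed line marks equal ratios. In WT cells 8 of 9 tubulin genes lie below the line and near the main cloud, and in KO cells Tubb3, Tubb2b and Tubb5 lie at its lower edge.

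Subtracting the KO from the WT leucine ratio asks whether the genotypes responded differently, and it contains the KO libraries that chose the family. Its intervals cover counting error only, and the difference was not tested across cultures. In RNA, Tubb3 was at 0.98 (0.46 to 1.50), Tubb2b at 0.58 (0.30 to 0.85), Tubb5 at 0.55 (0.53 to 0.58) and Tuba1a at 0.46 (0.30 to 0.61). Their RNA ratio was thus higher in WT than in KO cells. Of the 10 genes 7 were above 0 and 3 below. Those below were Tuba4a, at -0.23 (-0.37 to -0.09), and Tubb6 and Tuba1c, at -0.05 and -0.04 with intervals that include 0. In footprints Tubb2b was at 1.40 (0.59 to 2.22), Tubb3 at 1.20 (0.54 to 1.85), Tubb5 at 0.81 (0.76 to 0.85) and Tuba1b at 0.60 (0.20 to 0.99). Tubb6, Tubb4b and Tuba4a lay between 0.06 and 0.11, with intervals that include 0. Tuba1a, at 0.27 (-0.56 to 1.11), also had an interval that includes 0. Tuba1c, at -0.23 (-0.61 to 0.16), was the only gene of the 9 below 0. In TE only Tubb5, at 0.26 (0.20 to 0.31), and Tuba4a, at 0.34 (0.13 to 0.55), had intervals clear of 0 among the 9. Tubb3 TE was at 0.22 (-0.62 to 1.06), so its lower TE without leucine was not set apart by genotype. The members past 2-fold were 0 of 10 in RNA (4.67% of all genes), 2 of 9 in footprints (4.6%) and 0 of 9 in TE (7.81%). Tubb3 RNA sits at that boundary and passed, at 1.00, with scaling to total counts.

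KO against WT cells in replete medium showed more RNA of several isotypes in KO cells. This comparison shares the KO replete libraries with the KO leucine comparison, so the high Tubb3 and Tubb2b levels there enter both. Tubb3 RNA was 2.52-fold higher, a log2 ratio of 1.33 (0.97 to 1.71). Tuba1b was at 0.74 (0.70 to 0.79), Tubb2b at 0.72 (0.53 to 0.92), Tuba1a at 0.59 (0.48 to 0.70) and Tubb5 at 0.31 (0.30 to 0.33). Tubb2a went the other way, at -1.03 (-1.67 to -0.45), so the near-identical pair Tubb2a and Tubb2b differed in direction. Tuba1c (-0.23) and Tubb4b (-0.19) were slightly lower in KO cells. Of 10 genes, 2 passed the 2-fold rule, against 6.86% of all genes, and Tubb2a no longer did with a prior count of 5 (-0.94).

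Replete footprints of Tubb3 and Tubb2b, both minor beta isotypes, were higher in KO cells. Tubb3 was at 1.10 (0.81 to 1.39), 2.14-fold higher, and Tubb2b at 1.00 (0.60 to 1.41), 2.0-fold higher, which makes 2 of 9 past the rule against 3.03% of all genes. Tubb2b is at the boundary and did not pass with DESeq2 size factors (0.999) or a prior count of 5 (0.98). Tuba4a was at 0.37 (0.29 to 0.44) and Tubb5 at 0.14 (0.12 to 0.16). In TE none passed (1.38% of all genes). Tuba1b TE was lower in KO cells at -0.57 (-0.76 to -0.37), and Tuba4a and Tubb4b were higher at 0.37 (0.25 to 0.49) and 0.31 (0.19 to 0.44).

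Tubb3 is also a marker of neurons, so the neuronal marker list was read beside it. Its 12 genes summed to 23.1 and 21.5 CPM of RNA in WT replete and leucine-free cells and to 59.7 and 62.5 CPM in KO cells, so the sum was higher in KO cells in both media, whereas Tubb3 RNA stood clear of WT only in replete medium. The sum came from Map2 and Syp: the other 10 genes were under 1 CPM in all RNA libraries, and Rbfox3, Snap25, Syt1 and Stmn2 had 0 RNA reads in all 4. The footprint sums were 17.3, 12.5, 43.3 and 32.5 CPM. The epithelial sum also differed with genotype and medium, with 234 and 323 CPM of RNA in WT and 473 and 1089 CPM in KO cells. It came mostly from Sox9 and Krt18, at 153 and 59.5 CPM in WT replete and 750 and 283 CPM in KO leucine-free cells. Between the same libraries Krt19 went the other way, from 0.595 to 0.226 CPM. Cdh1 RNA was lower without leucine in both genotypes and Epcam had 0 reads, so the list did not shift as a whole. The part of these markers in the tubulin differences was not tested, and in bulk lysates a changed mix of cells and a changed amount of RNA per cell cannot be told apart. Acinar markers summed to at most 0.357 CPM and immune and endothelial markers to at most 0.908 CPM of RNA.

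In leucine-free medium the genotypes differed less in Tubb3 and more in Tubb5 footprints. This comparison shares the KO leucine-free libraries with the KO leucine comparison that chose the family, so the Tubb3 level there enters both. Tubb3 RNA was at 0.35 (-0.04 to 0.75) for KO over WT and its footprints at -0.10 (-0.71 to 0.55). Tubb5 RNA was at -0.24 (-0.26 to -0.22) and its footprints at -0.67 (-0.71 to -0.63), 1.59-fold lower in KO cells. Tuba1b RNA was higher at 0.52 (0.48 to 0.56), with footprints at -0.42 (-0.78 to -0.06) and TE at -0.94 (-1.29 to -0.59). Tubb2a RNA was again lower in KO cells, at -1.30 (-2.08 to -0.61), the only gene past the 2-fold rule in RNA (8.39% of all genes). In footprints and in TE none of the 9 passed, against 7.23% and 5.95% of all genes, although Tuba1b TE did pass with the length trend removed. Tubb4b TE was higher in KO cells at 0.43 (0.25 to 0.61).

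The genes whose profile over the 8 libraries was nearest to that of Tubb3 were found by Euclidean distance of log2 CPM, centred within each assay, among the 9100 genes. The nearest 5 were Vwa5a (0.501), Wfs1 (0.507), Bnip3l (0.662), Tubb2b (0.674) and Trim16 (0.707). Vwa5a had 561, 609, 1086 and 690 RNA reads and 221, 65, 347 and 114 footprints, with its highest CPM in KO replete cells as for Tubb3. Tubb2b was the nearest tubulin, ranked 4, followed by Tuba1a at 29, Tuba1b at 110, Tubb5 at 448 and Tuba4a at 573. Tubb6, Tubb4b and Tuba1c ranked 2695, 4753 and 6601. The Tubb3 profile includes the KO footprint values that chose the family, and the points of each profile share libraries and sequencing depth. Nearness is therefore a description.

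Most other tubulin genes had few or no reads. Tuba3a, Tuba3b and Tuba8 had 0 RNA reads in all 4 libraries, which allows up to 0.0714 to 0.0967 CPM. Tubal3, the platelet isotype Tubb1 and the brain isotype Tubb4a had at most 1, 5 and 10. Even so, Tuba3a, Tuba3b and Tuba8 were assigned up to 7, 4 and 8 footprints in a library, so a few footprints were assigned to tubulin genes without RNA reads. The highest of these counts, 8, was Tuba8 in KO replete cells, where Tubb2a had 23 and Tubb3 254. In KO leucine-free cells Tuba3a, Tuba3b and Tuba8 had 3, 4 and 1, close to the 5 of Tubb2a and well below the 61 of Tubb3. Gamma-tubulin Tubg1, which nucleates microtubules, had 561, 133, 454 and 206 footprints, and delta-tubulin Tubd1, a centriole protein, had 57, 20, 41 and 14. These were the 2 other tubulin genes measured in footprints, and both were lower without leucine in KO cells: Tubd1 at -0.93 and Tubg1 at -0.55, a median of -0.74 beside -0.76 for the 9 alpha and beta genes. In WT cells Tubd1 was at 0.43 and Tubg1 at -0.15. The Tubd1 value in KO cells rests on 41 and 14 reads. Tube1 and Tubg2 fell below the minimum mean of 30 footprints and have no ratio here. In KO cells Tubg2 had 10 and 2 footprints. Tube1 had 22 and 17, a smaller fall than that of the library's protein-coding reads, 6478343 and 4168480, so not all other tubulin genes were lower.

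Genes that fold, regulate or bind tubulin were read as lists, by counts and medians. The medians over all measured genes lay between -0.02 and 0.01 in these comparisons. The chaperonin CCT, which folds tubulin and actin, had all 8 subunits with lower footprints and lower TE without leucine in both genotypes. Its median footprint ratio was -0.17 in WT and -0.19 in KO cells and its median TE ratio -0.33 and -0.35, with RNA medians of 0.19 and 0.12. No CCT subunit passed the 2-fold rule. Prefoldin, which delivers new tubulin to CCT, had 5 of 6 subunits below 0 in footprints in each genotype, with medians of -0.17 and -0.30. The 6 folding cofactor genes had medians of 0.17 and -0.12 in footprints, with 4 above 0 in WT and 1 above 0 in KO cells.

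The autoregulation list, Ttc5, Scaper and 9 CCR4-NOT subunits, lay on the other side of 0 from tubulin in footprints. Its median footprint ratio was 0.14 in WT, with 9 of 11 above 0, and 0.07 in KO cells, with 8 of 11 above 0. Tubulin modifying enzymes, which detyrosinate, acetylate or polyglutamylate the tails, had medians of 0.08 and -0.25 over the 11 measured of 14 genes. Microtubule-associated and tubulin-binding proteins had medians of 0.07 and -0.15 over 17 of 23 genes. The gamma-tubulin ring complex, with medians of 0.02 in both, held Tubgcp6, the one gene of these lists past the 2-fold rule in a leucine comparison of RNA or footprints, at 1.03 (0.57 to 1.46) in WT footprints. In KO footprints no gene of the 8 lists passed the 2-fold rule, which 2.09% of all genes passed. The lowest list median there was that of the other tubulin genes, -0.74 over 2 genes, and the other 7 medians lay between -0.30 and 0.07.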

How the data were processed

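RNA-seq and ribosome footprints were measured in 8 libraries, 1 per genotype, medium and assay. The authors deposited unnormalised read counts, 1 per gene. The headers show featureCounts 1.6.4 on exons of Ensembl release 96, without a setting for strandedness, for reads with several alignments or for reads shared by overlapping genes. The submitters' processing notes also name cutadapt, STAR, Subread and GRCm38. Footprints were made with ribonuclease I from lysates with cycloheximide, per the labels' protocols. Strandedness of the RNA-seq is not given in the sources used here.

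Symbols were joined for 55450 of 55536 identifiers, and the RefSeq GRCm38.p6 table gave 21425 protein-coding genes. TMM factors came from edgeR 4.0.16 in R 4.3.3, per assay, over protein-coding genes with a mean count of at least 30, the minimum for a measured gene (10818 in RNA-seq, 9172 in footprints, 9100 in both). These factors spanned 0.989 to 1.01 (RNA-seq) and 0.980 to 1.03 (footprints). Ratios are log2 with a prior count of 0.5. Intervals are 95%: exact conditional binomial (Clopper-Pearson) for a pair of libraries, Wald for TE and WT minus KO, exact Poisson for CPM. They account for counting error alone: without molecular identifiers, PCR copies are not separate molecules. A level for 0 reads sets the count at 3. The ratio code was tested on simulated data. Python 3.11.15, numpy 2.4.6, pandas 2.3.3, scipy 1.17.1 and matplotlib 3.10.9 were used.

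The members and the 8 lists were chosen with earlier results of these data known. All 10 members are named, though not each one in every comparison. List genes past 2-fold in a leucine comparison of either assay are named too (at most 4 per list). So are Eif2ak4 and Atf4 as label checks, and the 5 genes nearest Tubb3. Some marker and other tubulin genes are named after their counts were seen. Other settings were total counts, DESeq2 1.42.0 size factors, removal of a length trend (lowess, fraction 0.3), a prior count of 5, minimum means of 10, 100 or none, a log2 size of 0.5 and shares of raw counts.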

Additional observations from a re-analysis of the deposited data

Results flagged for a closer look

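For 3 of the 10 genes the RNA ratio of leucine-free over replete medium pointed in opposite directions in the genotypes, with each counting interval clear of 0. How many of all measured genes do the same was not counted, so the 3 are a description only. Tubb5, the main beta isotype, was at 0.27 in WT and -0.28 in KO cells. Tubb2b was at 0.35 in WT and -0.23 in KO cells. Tuba1a was at 0.34 in WT and -0.11 in KO cells, where its interval (-0.22 to -0.01) came close to 0. Every group is 1 library, so these differences were not tested across cultures. With the length trend removed the WT values were 0.20, 0.21 and 0.16, still above 0.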

How the results depend on the processing

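Of 948 single-gene ratios under 7 other settings, 923 stayed within their interval, 25 moved out of it and 0 reversed with an interval clear of 0. Of 232 medians, counts and Tubb3 values, 204 stayed and 28 moved. The WT RNA median was 0.11 with the length trend removed. With a mean of at least 100, fewer tubulin genes remained: the KO footprint median was -0.46 and the replete KO-over-WT RNA median 0.31, 1 gene was past 2-fold in KO footprints, in WT minus KO footprints, in replete RNA and in replete footprints, and 0 in leucine-free RNA. Of all genes, 1.65%, 3.25%, 4.43%, 1.58% and 5.57% were past 2-fold there, in the same order. With a log2 size of 0.5, the counts were 2 in WT TE, 1 in KO RNA, 5 in KO footprints, 6 in KO TE, 3 and 4 in WT minus KO RNA and footprints, 5 and 1 in replete RNA and TE, and 2, 1 and 1 in leucine-free RNA, footprints and TE. Of 10818 genes in RNA, those past 0.5 were 698 higher and 561 lower in KO, and 872 and 914 in WT minus KO. They were 1444 and 1076 in replete RNA and 1591 and 1307 in leucine-free RNA. Of 9172 in footprints they were 797 and 568 in KO, 818 and 927 in WT minus KO and 1376 and 1097 in leucine-free medium. Of 9100 in TE they were 852 and 943 in WT and 956 and 970 in KO. Replete TE had 605 and 510, and leucine-free TE 1269 and 1054. KO TE had 0 past 2-fold with total counts (3.16% of all genes) or the length trend removed (2.98%). WT minus KO RNA had 1 with total counts (4.72%). Replete RNA had 1 with a prior of 5 (6.43%). Replete footprints had 1 with DESeq2 factors (2.99%) or a prior of 5 (2.79%). Replete TE had 1 (Tubb2a) with a minimum of 10 (2.85%) or none (4.09%). Under those settings Tubb2a also passed in KO footprints at -1.51 (-3.37 to -0.19), making 3 genes there. That ratio rests on 23 and 5 reads, and 2.71% (minimum of 10) and 1.998% (none) of all genes passed there. Leucine-free TE had 1 with the length trend removed (5.88%). Beyond these constructions the cause was not tested.

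Over all genes, the split of higher against lower calls changed with the length trend removed from 91 and 94 to 68 and 110 in WT RNA, from 113 and 154 to 108 and 89 in WT TE, and from 53 and 73 to 69 and 57 in replete TE. With total counts it changed from 144 and 128 to 195 and 93 in KO TE, and from 354 and 187 to 463 and 132 in leucine-free TE. Among other settings, a prior of 5 gave 178 and 92 in WT TE and 226 and 213 in leucine-free TE, a minimum mean of 100 gave 53 and 12 in WT RNA, 28 and 94 in WT TE and 12 and 39 in replete TE, and no minimum gave 499 and 193 in WT TE. The percent past 2-fold ran from 0.660 to 5.57 over the comparisons with a minimum mean of 100 and from 1.58 to 12.8 without one, which also moved the median of all genes by up to 0.15. No paired analysis was possible because each group has 1 library and the labels carry no replicate numbers, and leaving out a library was not possible for the same reason. Among the 9 genes measured in footprints, depth limits Tuba1a, Tubb2b and Tubb3 most, with 22, 27 and 36 reads in the WT leucine-free library, and Tubb2a, with 6 there and 5 in the KO leucine-free library, fell below the minimum.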
